A study of Mus musculus with 6 samples.

Results

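The genes examined here encode the proteins of the cytosolic ribosome, as measured in tumor-associated macrophages (TAMs) of mice with and without the complement receptor C5aR. They were taken by name and level alone. A gene was a member if its symbol begins with Rpl or Rps and a digit, or is Rpsa, Rplp0, Rplp1 or Rplp2, if it is annotated as protein-coding and if its mean over all 6 libraries was 10 TPM or more. TPM is a transcript abundance scaled for transcript length and to a fixed total in each library. The Rps6k kinases were left out. Of 56980 genes listed, 92 carried such a symbol and 85 reached the level. These 85 were 46 large subunit genes, 31 small subunit genes, the 4 paralogs Rpl22l1, Rps27l, Rpl36al and Rpl7l1, and the 3 intronless copies Rpl10-ps3, Rps12-ps3 and Rps27rt that GENCODE M21 annotates as protein-coding. The last member, Rps19bp1, encodes a nucleolar protein that binds Rps19 and is not part of the ribosome.

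The WT group was C57BL/6 mice and the C5aR-/- group was C5aR knockout mice on the C57BL/6 background, all female and 6 to 8 weeks old. All were injected intraperitoneally with ID8 cells, a mouse epithelial ovarian cancer line, and tumors were taken 2 months later. TAMs were sorted as live CD45+CD11b+Ly6G-F4/80+ cells, and each group has 3 libraries. The knockout is present in every cell of the host and not in macrophages alone, while the injected ID8 cells are the same in both groups. The study counts mice, with more per group than the libraries analysed here, and the labels do not tie a library to a mouse, so p-values measure the spread between these libraries.

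A cytosolic ribosome joins a small subunit, which holds the mRNA and reads its codons, to a large subunit, which makes the peptide bond and lets the chain out through a tunnel. Each ribosome holds a single copy of nearly every protein, so cells make the proteins in step. In mammals their mRNAs mostly begin with a C followed by a run of pyrimidines, the 5′ TOP motif, through which mTOR and LARP1 tune their translation. Ribosomal protein mRNAs are among the most abundant of any cell, and their genes have left many intronless copies across the genome. Such copies bear on how reads are shared out between rows.

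The coding sequences of several members are found again, letter for letter, elsewhere in the genome. The stretches below are shown because the largest differences between groups lie in rows of this kind. Each is written 5′ to 3′ from the GENCODE M21 transcripts (GRCm38). In the first 4 the capitals mark the start codon and both genes named have the same 60 bases. In the last 2 pairs the capital marks the base that differs.

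Rpl5 and Gm15500: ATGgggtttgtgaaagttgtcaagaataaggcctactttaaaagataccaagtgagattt
Rpl12 and Gm10275: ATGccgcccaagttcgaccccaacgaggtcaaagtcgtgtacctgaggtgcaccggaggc
Rps12 and Rps12-ps3: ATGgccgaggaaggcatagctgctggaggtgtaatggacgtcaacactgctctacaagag
Rps27 and Rps27rt: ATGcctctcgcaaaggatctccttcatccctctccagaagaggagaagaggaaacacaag
Rps20: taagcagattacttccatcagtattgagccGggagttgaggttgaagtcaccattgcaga
Gm4332: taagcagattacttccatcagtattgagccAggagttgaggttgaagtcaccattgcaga
Rpl37: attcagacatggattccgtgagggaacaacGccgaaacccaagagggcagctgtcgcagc
Rpl37rt: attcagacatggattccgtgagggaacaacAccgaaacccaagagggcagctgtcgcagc

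Rpl5 lies at chr5:107900502-107909005 and Gm15500, a transcribed processed pseudogene, at chr7:114705217-114706235, and their 891 coding bases did not differ. Gm10275, also a transcribed processed pseudogene, lies at chr10:29698746-29699380 and matched all 495 coding bases of Rpl12, whose gene is at chr2:32961559-32965345. Rps27rt (chr9:114982366-114982739) and Rps12-ps3 (chr19:59322290-59322783) matched the whole coding sequences of Rps27 and Rps12. Counted from the first base of the start codon, the Rpl37 copy differed by G249A. The Rps20 copy differed by G324A within the bases that it shares with Rps20. That copy, Gm4332 (chr3:119709516-119709861), is shorter than the 357 coding bases of Rps20 and does not hold all of them. Across the 82 members that are not themselves intronless copies, 1004 annotated copies were found at 90% identity or more over 70% or more of the coding sequence. Of these, 476 had a TPM above 0 and 39, belonging to 30 members, had a mean TPM of at least 10. In 19 of these 39 copies every stretch of 100 bases of the parent's coding sequence (the whole of it where shorter) was present, so a read within the coding sequence alone cannot be told apart between them.

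Ribosomal protein mRNAs were a large part of the RNA in every library. The members took 10.31%, 12.07% and 11.00% of all TPM in WT TAMs and 11.23%, 12.07% and 13.97% in C5aR-/- TAMs. The WT mean was 11.1% ± 0.884 (SD, n = 3). The C5aR-/- mean was 12.4% ± 1.40 (SD, n = 3). The group means differed by 1.29 percentage points, less than the SD of the C5aR-/- libraries. C5aR-/- TAM 3 was above every WT library, while C5aR-/- TAM 1 and 2 lay among them. The large subunit genes took 1.20 to 1.22 times the TPM of the small subunit genes in WT TAMs and 1.13, 1.25 and 1.35 times in C5aR-/- TAMs 1, 2 and 3. Of the 100 genes with the highest mean TPM, 38 were members.

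The single members spanned nearly 2 orders of magnitude. Mean TPM ran from 47.3 for Rps27rt to 4638 for Rps27, with a median of 1248, and 58 members were at 1000 or more. The next member above Rps27rt was Rpl5 (52.5), and just outside the minimum of 10 were Rpl9-ps6 (3.82) and Rpl36a-ps1 (0.235). The 5 highest were Rps27, Rpl23a (3464), Rplp1 (3149), Rpl26 (3018) and Rpl32 (2872). Rpl23a and Rpl26 sit at the rim of the peptide exit tunnel, and Rplp1 is part of the stalk that recruits translation factors. Neighbours in this order were not separated, since the libraries ran from 3837 to 5255 for Rps27, from 2835 to 4553 for Rpl23a, from 2399 to 4077 for Rplp1, from 2550 to 3743 for Rpl26 and from 2272 to 4578 for Rpl32. At the low end, 5 members were under 100, and 2 of these, Rpl5 and Rpl12, encode proteins of which the ribosome holds as many copies as of the others. Summed with their copies, Rpl5 went from a mean TPM of 52.5 to 1622 and Rpl12 from 75.1 to 2205. The row of Gm15500 alone held 1570 and that of Gm10275 2128. In all, 12 members held less than 50% of the TPM of their summed family, among them Rpl27a, Rps23, Rpl31, Rps28 and Rps20, and 59 held more than 95%. The SD of log10 mean TPM over the 82 members fell from 0.392 for the rows to 0.325 for the sums.

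**Figure D1:**
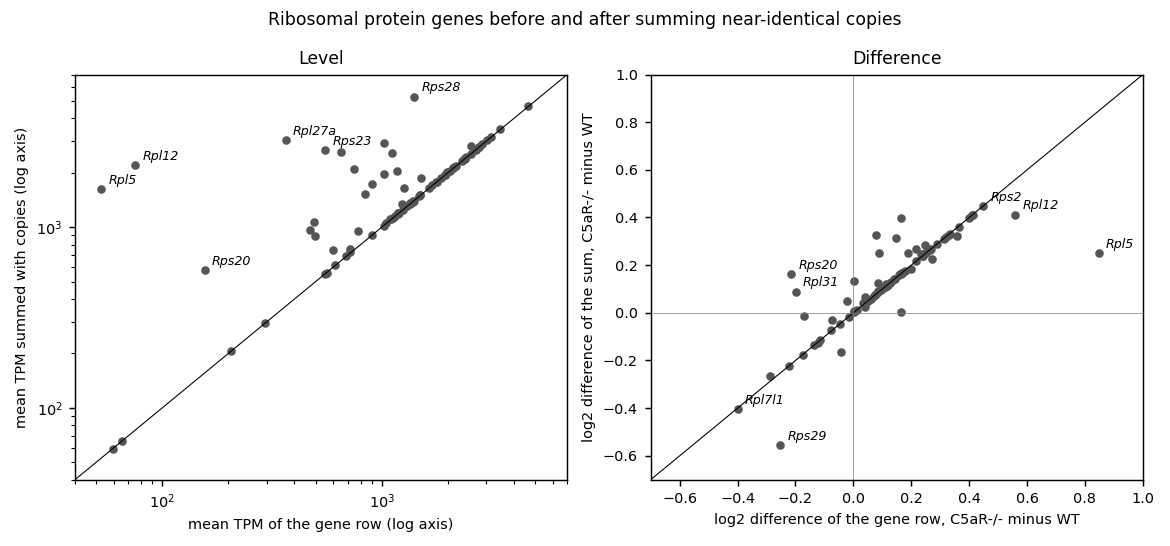
Each point is 1 of 82 ribosomal protein genes. The left panel plots mean TPM over 6 libraries of the gene row (x, log axis) against the mean TPM summed with its near-identical copies (y, log axis), and the right panel plots the log2 difference, C5aR-/- minus WT on log2(TPM + 1), of the row (x) against the sum (y). Most points lie on the line of equality, while Rpl5 and Rpl12 lie far above it in level, and the difference of Rpl5 moves from 0.85 to 0.25.

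Many members shared a run of letters around the start of transcription, which the choice of genes did not use. The RefSeq promoter table (GRCm38.p6) matched 63 of the 85 members by symbol. Within 50 bases of the start site, the letters CTTT followed by 2 bases that are each C or T lay wholly inside the window on the sense strand in 34 of 63 (54.0%), against 15.1% of all 27025 promoters in the table and 12.2% of those of tested genes. On the opposite strand the share was 9.5% of members and 13.9% of all promoters. The share was 52.2% of the small and 58.8% of the large subunit genes, while 13.0% of 69 mitochondrial ribosomal protein genes and 11.9% of 42 ribosome biogenesis genes held it. Of 9 other 5′ TOP genes in the table, 2 (22.2%) held it. Such a match is a run of letters and not a measured start. The 30 bases around the start site (15 before it and 15 from it on) are shown for 3 members that hold the run and for the 2 paralogs with the lowest differences, which do not hold it on the sense strand of the window, with the run in capitals.

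Rpl12: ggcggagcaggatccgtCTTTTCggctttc
Rps27: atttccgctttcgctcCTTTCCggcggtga
Rps6: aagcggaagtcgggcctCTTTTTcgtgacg
Rpl7l1: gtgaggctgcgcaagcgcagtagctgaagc
Rpl22l1: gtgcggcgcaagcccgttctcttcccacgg

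These windows lie at chr2:32961697-32961726 (Rpl12, plus strand), chr3:90213634-90213663 (Rps27, minus strand), chr4:86857353-86857382 (Rps6, minus strand), chr17:46782642-46782671 (Rpl7l1, minus strand) and chr3:28805493-28805522 (Rpl22l1, plus strand). Of the 4 paralogs, 1 held the run. Members with high differences could also lack it, as Rps2 and Rplp0 had 0 matches on the sense strand.

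To ask whether loss of C5aR moved these genes, log2(TPM + 1) of each gene was compared between the groups with limma. The fit covered 14776 genes that reached a TPM of 1 in 3 or more libraries, and all 85 members passed that filter. No member passed the adjusted test. Requiring a Benjamini-Hochberg adjusted p below 0.05 and a difference of 2-fold or more, limma called 0 members and 0 of all genes (0.0%), and the smallest adjusted p of a member was 0.170. At an unadjusted p under 0.05, 5 members were higher and 1 was lower in C5aR-/- TAMs, that is 7.06% of the members, against 6.06% of all genes higher and 8.37% lower. In both directions together, 14.4% of all genes were called. The 95% interval of the difference lay within a 2-fold change in either direction for 80 of 85 members.

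Most members had small positive differences. Their median log2 difference was 0.12, against -0.05 over all tested genes, and 68 of 85 were positive against 6570 of 14776. The C5aR-/- libraries lay all above the WT libraries in 17 members (20.0%) and all below in 1 (1.18%), against 8.84% and 12.5% of all genes. Among the 17 were Rps2, Rps6, Rps9, Rps14, Rps19, Rplp0, Rplp1, Rpl5, Rpl12, Rpl14, Rpl34 and the 3 intronless copies. Summed with their copies, Rpl5 and Rpl14 overlapped between groups, Rpl14 with a difference of 0.002. The other genes named here that have a sum of their own stayed apart. TPM is a share of a fixed total and the members move together within a library, so these genes are not independent of each other. Per library, the median deviation of the members from their WT mean was -0.09, 0.11 and -0.01 in WT and 0.01, 0.10 and 0.32 in C5aR-/- TAMs 1, 2 and 3. Without C5aR-/- TAM 3 the median difference was 0.05 and 49 of 85 were positive, and without C5aR-/- TAM 1 it was 0.22 and 78 were positive. Under quantile normalization 57 of 85 were positive. Under median-of-ratios scaling 35 members lay above WT and 1 below without overlap, against 21.7% of all genes in both directions together. The medians under that scaling were 0.18 for the members and -0.002 for all genes.

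**Figure D2:**
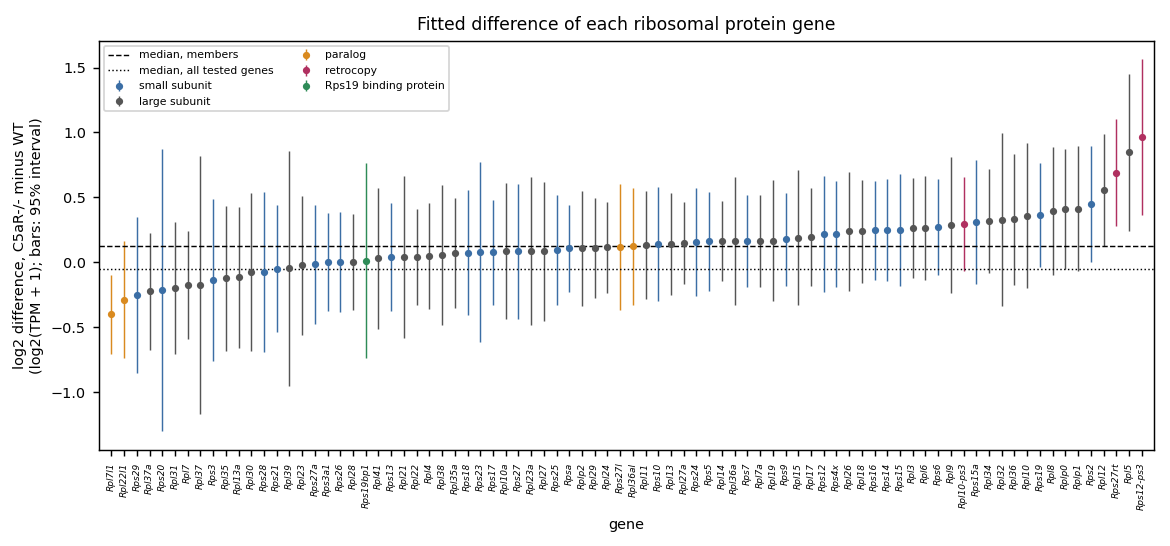
Fitted log2 difference, C5aR-/- minus WT on log2(TPM + 1), of 82 of the 85 genes (points, colored by class) with its 95% interval (bars), ordered by size. The dashed line is the median of the members, 0.12, and the dotted line that of all tested genes, -0.05. The 6 intervals that exclude 0 are those of Rpl7l1 at the low end and of Rps2, Rpl12, Rps27rt, Rpl5 and Rps12-ps3 at the high end.

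The highest differences belonged mainly to rows that share their sequence with a copy. Rps12-ps3 had a TPM of 144, 116 and 181 in WT and 387, 259 and 227 in C5aR-/- TAMs, with no overlap. Its log2 difference was 0.97 (SE 0.25, limma adjusted p = 0.182). Rps12, which has the same coding sequence, had 2193, 2476 and 2425 in WT and 2463, 2614 and 3211 in C5aR-/- TAMs, with overlap between the groups.

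Rpl5, which with Rpl11 and 5S rRNA forms the particle that can bind Mdm2, had a TPM of 41.5, 39.1 and 29.4 in WT and 52.5, 58.5 and 93.8 in C5aR-/- TAMs. The groups did not overlap, and the difference was 0.85 (SE 0.25, limma adjusted p = 0.225). Its copy Gm15500 had 1353, 1630 and 1338 in WT and 1451, 1616 and 2029 in C5aR-/- TAMs, so the sum of both rows and the smaller copies overlapped between groups and differed by 0.25 (SE 0.19, limma adjusted p = 0.600). Rpl11 itself had 1018, 1105 and 1287 in WT and 1097, 1229 and 1411 in C5aR-/- TAMs, also with overlap.

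Rps27rt had a TPM of 38.2, 37.0 and 32.1 in WT and 71.9, 50.7 and 54.0 in C5aR-/- TAMs. Its difference was 0.69 (SE 0.17, limma adjusted p = 0.170), while Rps27, the parent and most abundant member, had 3837, 4621 and 5072 in WT and 5255, 4650 and 4395 in C5aR-/- TAMs and differed by 0.09. Rpl12, at the base of the P stalk, had 51.6, 67.8 and 61.6 in WT and 93.1, 72.3 and 104 in C5aR-/- TAMs. It differed by 0.56 (SE 0.18, limma adjusted p = 0.254) and by 0.41 (SE 0.18) after summing with its copies, where the groups were still apart.

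Rps2, Rplp0, Rplp1 and Rpl8 also had high differences and are abundant, and their rows hold nearly all of the TPM of their summed family. Rps2, a protein of the mRNA entry channel, had a TPM of 1745, 1840 and 1816 in WT and 2215, 2245 and 2980 in C5aR-/- TAMs. All 3 C5aR-/- libraries were above WT, the difference was 0.45 (SE 0.19, limma adjusted p = 0.345), and summing with copies left it at 0.45. Rplp1 had 2399, 2971 and 2727 in WT and 3122, 3598 and 4077 in C5aR-/- TAMs. Rplp0, the protein that anchors Rplp1 and Rplp2 to the ribosome, had 1858, 2001 and 1717 in WT and 2038, 2757 and 2669 in C5aR-/- TAMs. Both stalk proteins were apart between groups, at 0.41 (SE 0.20, limma adjusted p = 0.406) and 0.41 (SE 0.19, adjusted p = 0.390). Rplp2, the third stalk protein, had 489, 523 and 598 in WT and 480, 560 and 711 in C5aR-/- TAMs, with overlap. Rpl8, near the peptidyl transferase center, differed by 0.40 with overlap.

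**Figure D3:**
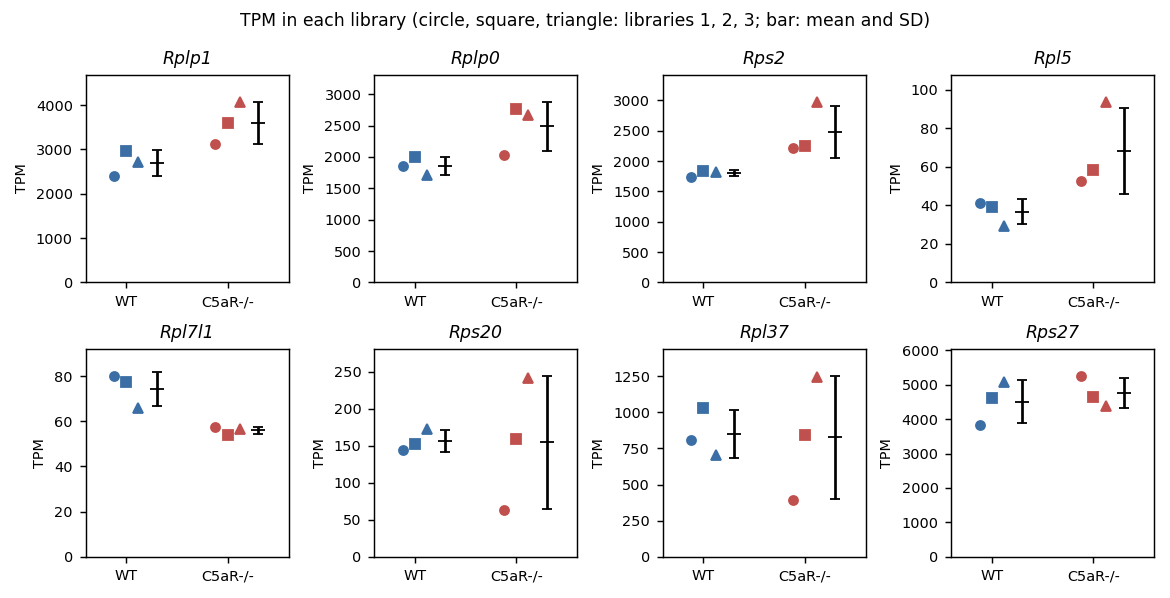
TPM (y, from 0) of 8 genes in each WT (blue) and C5aR-/- (red) library, with circles, squares and triangles for libraries 1, 2 and 3 and black bars for the mean and SD of 3 libraries. The groups are apart for Rplp1, Rplp0, Rps2, Rpl5 and Rpl7l1 and overlap for Rps20, Rpl37 and Rps27, where C5aR-/- TAM 1 is the lowest library for Rps20 and Rpl37 and the highest for Rps27.

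The 2 lowest differences were those of paralogs. Rpl7l1, a relative of Rpl7 that acts in large subunit assembly, had a TPM of 80.1, 77.2 and 66.0 in WT and 57.4, 54.1 and 56.5 in C5aR-/- TAMs. It was the single member with every C5aR-/- library below WT, at -0.40 (SE 0.13, limma adjusted p = 0.241). Its parent Rpl7 had 1200, 1438 and 1177 in WT and 1185, 1239 and 959 in C5aR-/- TAMs.

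Rpl22l1, the paralog of Rpl22, had 222, 251 and 202 in WT and 147, 184 and 228 in C5aR-/- TAMs, with overlap, and differed by -0.29 (SE 0.19, limma adjusted p = 0.534). Rpl22 had 669, 739 and 704 in WT and 642, 702 and 843 in C5aR-/- TAMs. The log2 ratio of Rpl22l1 to Rpl22 averaged -1.65 ± 0.134 (SD, n = 3) over WT libraries. Over C5aR-/- libraries it averaged -1.97 ± 0.129 (SD, n = 3), and the groups did not overlap. A two-sided exact permutation test gave p = 0.1, the smallest that 3 libraries against 3 allow, and an adjusted p of 0.5 over 5 pairs. The ratio of Rpl7l1 to Rpl7 differed by -0.22 (exact permutation p = 0.3), that of Rpl36al to Rpl36a by -0.04 (exact p = 0.8) and that of Rps27l to Rps27 by 0.03 (exact p = 1.0). Rps4l, at a TPM of 0.95 to 3.73 in all libraries, gave 0.12 against Rps4x (exact p = 1.0). Rpl3l, Rpl39l and Rpl10l, known from muscle and testis, had a mean TPM under 0.1 and were not tested.

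C5aR-/- TAM 1 stood apart from the other libraries in how its members were arranged. The SD over members of the deviation from the WT mean was 0.423 in that library, against 0.183 and 0.254 in C5aR-/- TAMs 2 and 3 and 0.074 to 0.112 in WT, which the WT mean itself makes smaller. It was the lowest library for 34 members and the highest for 11. WT TAM 1 was the lowest for nearly as many, 33, and the highest for 1, and C5aR-/- TAM 3 was the highest for 63. The sign or size of several low differences depended on C5aR-/- TAM 1. Rpl7 (-0.18) did not, as it was at -0.22 without that library and at -0.06 without C5aR-/- TAM 3. Rps20, a protein of the small subunit head, had a TPM of 144, 153 and 173 in WT and 63.0, 159 and 242 in C5aR-/- TAMs, so its difference was -0.21 (SE 0.46) and turned to 0.33 without C5aR-/- TAM 1. Rpl37 had 811, 1031 and 702 in WT and 392, 842 and 1244 in C5aR-/- TAMs, and went from -0.17 to 0.29. Rpl31 had 639, 749 and 677 in WT and 449, 638 and 749 in C5aR-/- TAMs, and went from -0.20 to 0.01. In each of these rows C5aR-/- TAM 1 was below every other library. Rps29 (1277, 1478 and 1050 in WT and 769, 1136 and 1337 in C5aR-/- TAMs) and Rpl37a (996, 1267 and 1025 in WT and 771, 996 and 1062 in C5aR-/- TAMs) had the same lowest library.

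Summing with copies moved some of these rows. Rpl31-ps8, a full copy of the Rpl31 coding sequence, had 2324 in C5aR-/- TAM 1, its highest value, and the Rpl31 sum was positive at 0.09. The Rps20 sum was also positive, at 0.16. Of the 34 members lowest in C5aR-/- TAM 1, 29 were still lowest there after summing. Gm14303, a full copy of the Rps29 coding sequence, was listed at 0 in C5aR-/- TAM 1 and at 699 to 1385 elsewhere, and a 0 in such a row can be a failed estimate. The Rps29 sum moved the other way, from -0.25 to -0.55 (SE 0.44), the lowest of the 82 sums. Over the 82 sums the median difference was 0.13. At an unadjusted p under 0.05 limma called 1 sum higher (Rps2) and 1 lower (Rpl7l1), against 6.07% and 8.44% of all genes, and 19 sums lay above WT and 1 below without overlap, against 8.85% and 12.5%.

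**Figure D4:**
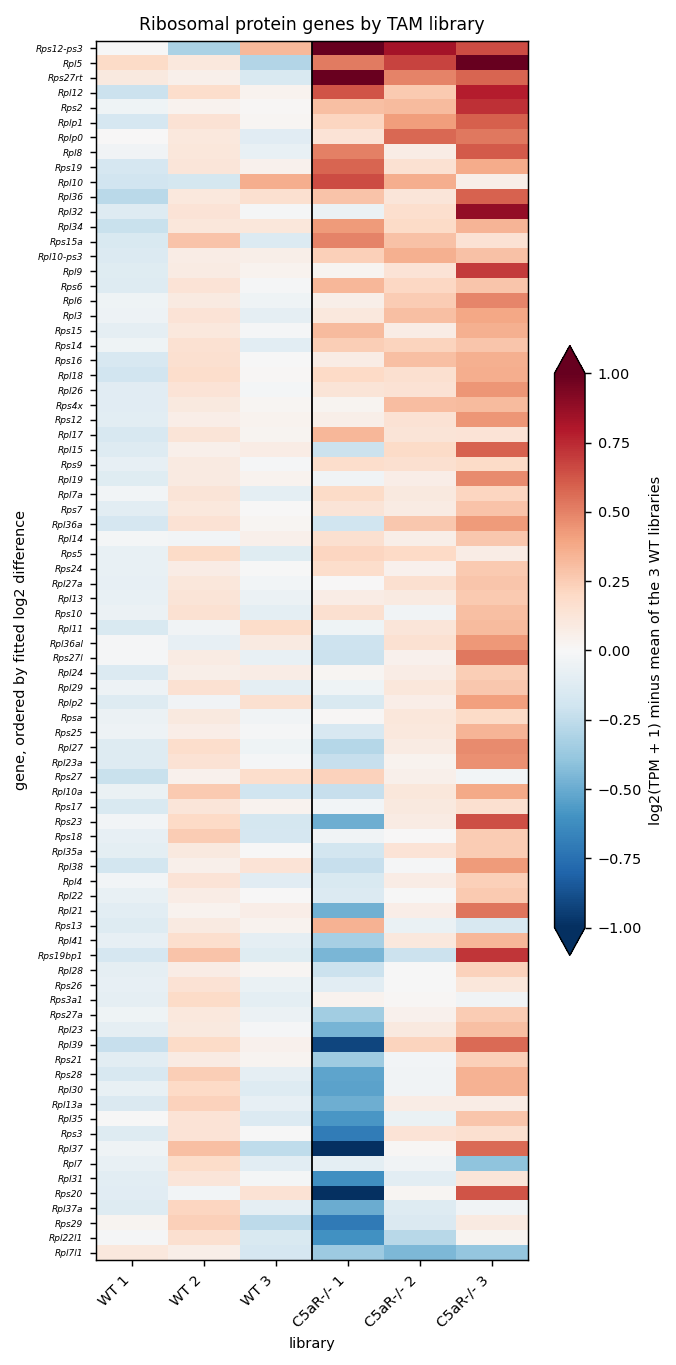
Each row is 1 of 82 of the 85 genes, ordered by fitted difference, and each column a library. Color gives log2(TPM + 1) minus the mean of the 3 WT libraries, from -1 (blue) to 1 (red), with values beyond drawn at the end colors. C5aR-/- TAM 1 holds the deepest blue cells, for Rps20, Rpl37 and Rpl39, and C5aR-/- TAM 3 is red for most genes.

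To separate a shift of all members from a change in single ones, each gene was also fitted after subtracting the mean log2(TPM + 1) of the members in its library. That mean was 9.82, 10.02 and 9.89 in WT and 9.87, 10.03 and 10.25 in C5aR-/- TAMs. On this scale 2 members were higher at an unadjusted p under 0.05, Rpl5 (0.71) and Rps12-ps3 (0.83), and 3 were lower, Rpl7l1 (-0.54), Rpl22l1 (-0.42) and Rpl37a (-0.36). All genes gave 3.49% higher and 11.5% lower. The rows of Rpl5 and Rps12-ps3 share their coding sequences with other rows. The smallest limma adjusted p of a member was 0.231. The spread between replicates was also compared. The members' median coefficient of variation was 9.35% over WT and 15.4% over C5aR-/- libraries, against 10.6% and 18.2% for 1348 other genes at a mean TPM of at least 100, a set not matched to the members' higher levels.

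The members were also grouped by position and role, where again no gene passed the adjusted test. All 3 P stalk proteins were positive, with a median of 0.41, and 2 lay above WT without overlap, against 20.0% of members and 8.84% of all genes. Among 8 proteins of the peptide exit tunnel and its rim, 5 were positive, from Rpl31 (-0.20) to Rpl26 (0.24), with a median of 0.07. The 4 proteins of mRNA entry and decoding ran from Rps3 (-0.14) to Rps2 (0.45). A list of 9 genes mutated in Diamond-Blackfan anaemia, an inherited failure of red cell production, had a median of 0.14. It ran from Rps26 (0.004) to Rpl5 (0.85), whose sum with its copies differed by 0.25 with overlap. The list is not complete, and other members known from that disease had negative differences, among them Rps29 (-0.25), Rpl31 (-0.20), Rpl35 (-0.12) and Rps28 (-0.07). The 4 X-linked members ran from Rpl39 (-0.04) to Rpl10 (0.36). Of ribosomal proteins under other symbols, Fau differed by 0.21 and Rack1 by 0.26.

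The genes that build, regulate and feed the ribosome also had no adjusted call. Of 14 other 5′ TOP genes, 12 were positive with a median of 0.20. Against 14.4% of all genes, 1 of the 14 (7.14%) had an unadjusted p under 0.05. This was Eef2, the elongation factor that moves the ribosome along, with a TPM of 875, 887 and 781 in WT and 1106, 1071 and 1150 in C5aR-/- TAMs (0.39, SE 0.14, limma adjusted p = 0.286). Eif3e was the lowest of them at -0.20. Of 37 initiation factors, 27 were positive with a median of 0.05, and 5 were higher and 0 lower at an unadjusted p under 0.05, against 6.06% and 8.37% of all genes. They ran from Eif4e (-0.28) to Eif2b2 (0.62).

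Of 49 ribosome biogenesis genes, 30 were positive, with a median of 0.03, and 1 higher and 3 lower at an unadjusted p under 0.05, or 8.16% against 14.4% of all genes. Wdr12, a large subunit assembly factor, was the lowest at -0.67 and Taf1d, of RNA polymerase I initiation, the highest at 0.48. The mitochondrial ribosomal proteins, which serve a separate ribosome, had 31 of 78 positive, a median of -0.05, and 0 higher and 3 lower, or 3.85% against 14.4% of all genes. They ran from Mrpl35 (-0.54) to Mrpl23 (0.61).

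Of 8 snoRNA host genes, whose introns carry guides for ribosomal RNA modification and several of which are 5′ TOP genes, 7 were positive. Zfas1 was the highest at 0.77, with a TPM of 85.8, 112 and 95.5 in WT and 80.7, 213 and 265 in C5aR-/- TAMs. C5aR-/- TAM 1 was the lowest library there too, so the groups overlapped. Snhg8 was the lowest of this list at -0.02.

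Among 12 genes of mTOR and MYC control, Eif4ebp1, an mTOR-regulated repressor of cap-dependent translation, was the highest. It had a TPM of 29.5, 19.4 and 23.9 in WT and 34.9, 55.6 and 78.3 in C5aR-/- TAMs, with no overlap (1.13, SE 0.31, limma adjusted p = 0.203). Eif4ebp2 was the lowest at -0.38, and the median of the list was 0.004. Myc, which drives ribosome production in many cells, had 125, 118 and 80.5 in WT and 245, 155 and 230 in C5aR-/- TAMs, with no overlap (0.96, SE 0.24, limma adjusted p = 0.177). Myc was singled out after its values were seen. Of 6 ribosome rescue genes, 4 were positive, from Ltn1 (-0.24) to Pelo (0.35). Cdkn1a (0.93) was the highest and Mdm2 (-0.18) the lowest of the 3 genes of the p53 list, with 0 calls at either threshold.

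C5ar1, the deleted gene, had a TPM of 86.5, 37.3 and 16.2 in WT and 0.38, 0.11 and 0.05 in C5aR-/- TAMs, as labelled. In bulk RNA, fewer cells of a type and less RNA per cell cannot be told apart, and other cell types were present or varied beside the members. The summed TPM of 10 macrophage markers was 2575 to 8920 in WT and 2564 to 8759 in C5aR-/- TAMs, that of 8 epithelial tumor markers 1882 to 2079 and 1807 to 2315, and that of 6 cycling genes 468 to 514 and 502 to 702. C5aR-/- TAM 3, the library in which most members were highest, had the highest cycling sum (702) and the lowest macrophage sum (2564, next to 2575 in WT TAM 3). The 4 erythroid markers, mostly hemoglobin genes, summed to 208 to 3901 in WT and to 16183, 210 and 690 in C5aR-/- TAMs 1, 2 and 3, so the library with the most hemoglobin RNA is the one whose members stood apart. The 5 neutrophil markers summed to 622 to 2290 in WT and 30.6 to 387 in C5aR-/- TAMs, with Ly6g, the gate that excludes these cells, at 0 to 4.94 in all libraries. The 6 T cell markers summed to 52.7 to 104 and 22.7 to 75.2, the 4 B cell markers to 32.0 to 160 and 8.09 to 154, and the 5 mesothelial markers to 918 to 1254 and 711 to 966. Of the markers tested, the log2 difference was positive for 7 of 10 macrophage, 3 of 7 epithelial tumor, 5 of 6 cycling, 2 of 3 erythroid, 0 of 4 neutrophil, 0 of 6 T cell, 0 of 4 B cell and 1 of 5 mesothelial genes. No marker in these lists was at 0 in all 6 libraries. Their part in the results above was not tested.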

How the data were processed

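RNA of sorted TAMs was measured by poly(A) RNA sequencing in 6 libraries, 3 WT and 3 C5aR-/-, grouped by the sample labels. The authors used fastp for trimming, HISAT2 for alignment and StringTie for abundance, and the submitters' processing notes also name RSEM and mm10. The methods name FPKM, whereas the deposited values are TPM per gene, with a total of 1000000 per library. Since such values hold no read depth, it is unknown and no counting error is given. How reads that match several genes were assigned is not given in the sources used here.

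Symbols, gene types and coordinates came from GENCODE M21 (GRCm38, the assembly of mm10), which matched 52073 of 56980 gene IDs. Copies were sought with blastn 2.17.0, with each member's coding sequence against all GENCODE M21 transcripts, leaving out protein-coding genes other than ribosomal protein genes. Fits used limma 3.58.1 in R 4.3.3 (eBayes with trend, Benjamini-Hochberg adjustment over all genes) on log2(TPM + 1), on which scale changes of low genes are understated. The other values used Python 3.11.15, pandas 2.3.3, numpy 2.4.6, scipy 1.17.1 and matplotlib 3.10.9. The test was tested on simulated data, where genes varied independently and changed genes moved by 2-fold or more. The members move together and differ by less, so that check does not speak to them. The members, lists and tests were chosen with earlier results of these data known, and the sums over copies were added after the values were seen. Named genes were the 5 most abundant members, the 8 with the largest and the 8 with the smallest difference, the paralogs and their parents, and the highest and lowest gene of each list. The alternatives tried were leaving out each library, the replicate block, a filter at a TPM of 5 or none, a pseudocount of 0.1, median-of-ratios scaling, quantile normalization, TPM rescaled over other nuclear genes, eBayes without trend, and other denominators for the share. The authors' group mean columns were not used. Some genes counted among the members and lists are not reported here by name and are left out of the figures that label every gene.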

Additional observations from a re-analysis of the deposited data

How the results depend on the processing

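Members past the adjusted threshold numbered 0 under every alternative run. Among all 14776 tested genes, 356 passed without C5aR-/- TAM 1, 3 without C5aR-/- TAM 3 and 1 without C5aR-/- TAM 2. Under eBayes without trend 2 passed, and in the other runs 0 did. Members at an unadjusted limma p under 0.05 numbered 6 as reported and 11 under median-of-ratios scaling, against 14.4% and 14.6% of all genes. After summing over copies they numbered 2, against 14.5%. With a library left out they ran from 3 (without WT TAM 1, against 12.5%) to 8 (without C5aR-/- TAM 1, against 21.9%). Members whose groups did not overlap numbered 18 of 85 as reported and 36 under median-of-ratios scaling, against 21.3% and 21.7% of all genes. They numbered 40 without WT TAM 2, against 24.7% of all genes, and 35 without C5aR-/- TAM 1, against 42.0%. Over all libraries left out in turn they numbered 18 to 40, against 24.7% to 42.0% of all genes. Groups with fewer libraries are apart more often by chance. Members called relative to the library mean numbered 5, against 3.49% of all genes higher and 11.5% lower. They numbered 3 under eBayes without trend, 2 after summing over copies, and 1 to 5 with a library left out. The share of all genes on that scale was taken in the reported fit alone. The counts of the other runs therefore have no share to be read against. The median difference of 0.12 ran from 0.05 (without C5aR-/- TAM 3) to 0.22 (without C5aR-/- TAM 1), and the difference in share of 1.29 percentage points from 0.520 to 1.89 without the same libraries. The cause was not tested.

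The deviations of same-numbered libraries had correlations of 0.186, -0.011 and 0.272, so the numbers were not taken as pairs. With the replicate block 5 members were at an unadjusted limma p under 0.05, and 0 passed the adjusted threshold. These 5 were a smaller share of the members than the share of all tested genes called in the same fit.

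With a library left out, the paralog ratios ran from -0.23 to 0.27 for Rps27l to Rps27, from -0.15 to 0.0375 for Rpl36al to Rpl36a and from -0.32 to 0.35 for Rps4l to Rps4x. Single genes that changed sign ran from -0.64 to 0.33 (Rps20), -0.36 to 0.0086 (Rpl31), -0.54 to 0.29 (Rpl37), -0.0264 to 0.17 (Rps27), -0.10 to 0.24 (Rpl23a), -0.0868 to 0.29 (Rps27l), -0.0275 to 0.29 (Rpl36al) and -0.0684 to 0.13 (Rpl22). After summing over copies Rps20 was at 0.16 and Rpl31 at 0.089. The other 16 named genes kept their sign under every alternative run for them (Rps12-ps3 and Rps27rt have no sum over copies of their own), and none of the 24 passed the adjusted threshold. TPM values carry no depth, so counting error in the low rows, such as Rpl5, Rpl12 and Rps27rt, is unknown.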
